A study of Drosophila melanogaster with 4 samples.

Results

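The KDM4A regions of chromosome arm 2L are the enriched regions of the replicate-set list whose reference sequence is 2L, with regions of depletion left out. There were 1387 of them among 8653 in all, and the other large arms 2R, 3L, 3R and X held 6817. The regions came from ChIP-seq (chromatin immunoprecipitation and sequencing) of head nuclei from Oregon-R flies, a wild-type strain, labelled as mixed adults and collected as heads with sieves. KDM4A was precipitated with the antibody Q2541 in 2 samples, replicates 1 and 2, and each was paired with its own input. The samples used here held no mutant or treated group, and the cells of the head were not separated by type. A region is called held by a replicate where a region of that replicate's own list overlaps it by at least 1 bp.

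KDM4A, also called JMJD2A, belongs to the JmjC family of histone demethylases, which take methyl groups off lysines of histone H3. The fly protein is known to bind HP1a, the protein that coats heterochromatin. Arm 2L is the left arm of chromosome 2 and is mostly gene-bearing euchromatin. Its coordinates start at the telomere and rise toward the centromere, near which heterochromatin becomes frequent.

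Each list gave a position and 1 score per region, and the files gave no read counts, so depth is unknown. The labels do not name the scale of the score, but the values carried it. Relative to the commonest score of its list, the score was the log2 of a ratio of whole numbers up to 5000, to within 1e-10, for 96.6% of the 2L regions in the replicate set, 99.5% in replicate 1 and 99.8% in replicate 2. A difference of 1 in score is therefore read as a 2-fold difference in the ratio behind it. The commonest score differed between lists (0.30, 0.61 and 0.88), so score levels were not compared between them. Whether the replicates were separate collections of flies is not in the labels, and their spread may be technical. With 2 samples of 1 kind no test across samples was possible, so every value is a description. Positions are on FlyBase release 5 and serve as the names of the regions, since genes of that release were not used here.

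Among the large arms 2L was the one with the sparsest regions in the replicate set. It carried 60.3 regions per Mb over its 23.0 Mb, against 64.9 on 3R, 67.4 on 3L, 76.7 on X and 77.2 on 2R. Replicate 1 gave 47.9 regions per Mb on 2L, again the lowest of the arms, and replicate 2 gave 54.9, above the 50.2 of X. The regions covered 4.50 Mb, or 19.5% of the arm, against 21.8% of the other large arms together. In the replicates 16.2 ± 1.501% (SD, n = 2) of 2L and 17.3 ± 0.690% (SD, n = 2) of the other arms were covered. The means differed by less than the spread between replicates on 2L, but that spread includes differences between whole lists. Within each list 2L lay below the other arms together, at 15.2% against 16.8% in replicate 1 and 17.3% against 17.8% in replicate 2. The arms did not keep one order. In the replicate set 3L, at 19.8%, lay close to 2L, and the others ranged from 21.1% on X to 24.997% on 2R. In replicate 1 2L had the lowest share, 15.2% against 15.5% on 3L to 18.7% on 2R. In replicate 2 its 17.3% lay below 2R (22.3%) and 3R (18.9%) but above 3L (16.6%) and X (13.5%).

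**Figure D1:**
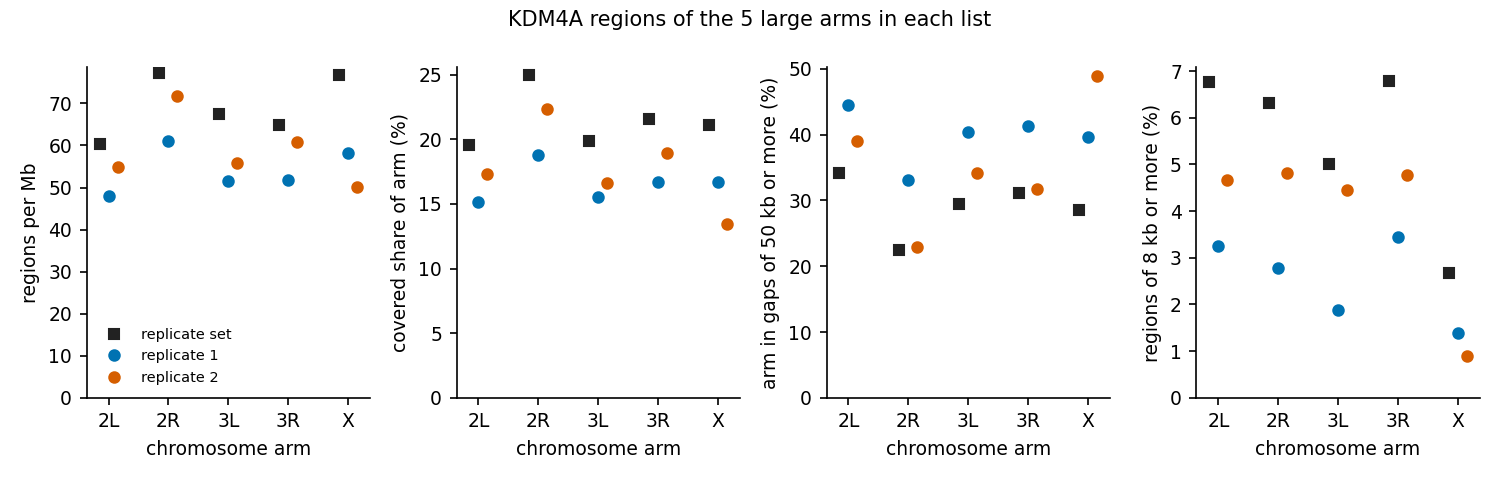
For each of the 5 large arms (x axis), from left to right: regions per Mb, covered share of the arm in percent, share of the arm lying in gaps of 50 kb or more in percent, and share of regions of 8 kb or more in percent. Black squares are the replicate set, blue points replicate 1 and orange points replicate 2. In the replicate set 2L has the lowest density (60.3 regions per Mb) and the largest share in long gaps (34.2%).

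The 2L regions themselves looked much like those of the other arms. Their median width was 2206 bp, with quartiles at 1540 and 3774.5 bp, against a median of 2161 bp elsewhere. Their median score was 0.59, with quartiles at 0.43 and 1.13, against 0.62 on the other arms together and 0.55 to 0.73 on single arms. The gap between neighbouring regions had a median of 3738 bp against 3456 bp on the other arms. The upper quartile of the gaps was 14456 bp against 11386 bp, so 2L stood further from the other arms in its longer gaps.

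From the telomere toward the centromere coverage of 2L fell. With the arm cut into 3 parts of 7.67 Mb, the covered share was 22.2% in the distal part, 20.3% in the middle part and 16.1% in the proximal part. The order was the same in replicate 1 (17.1%, 15.7% and 12.7%) and in replicate 2 (20.2%, 17.6% and 14.1%). The distal part exceeded the proximal part by 4.41 percentage points in replicate 1 and by 6.10 in replicate 2. Means were 18.6 ± 2.15% (SD, n = 2) for the distal part and 13.4 ± 0.958% (SD, n = 2) for the proximal part.

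Covered share depends on the number and width of the regions alone, and their number and median width both fell along the arm. The distal, middle and proximal parts held 494, 478 and 415 regions with median widths of 2297, 2213 and 2147 bp. Median scores, which do not enter the covered share, were 0.59, 0.57 and 0.59. Of the other arms 3L had the same order, with 21.2%, 20.6% and 17.7%, while on 3R the proximal part was the most covered (23.4% against 20.7% in the distal part). On X the parts ranged from 20.1 to 21.9%, and on 2R from 23.8 to 26.5%.

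In windows of 1 Mb the decline was uneven. The covered share ran from 6.95 to 34.8% over 23 windows, with a median of 19.0% against 22.2% over 96 windows of the other arms. The window from 10 to 11 Mb was the most covered, with 79 regions, 27.3% coverage in replicate 1 and 30.7% in replicate 2. It was followed by the windows starting at 6 Mb (29.3%), 19 Mb (27.5%) and 8 Mb (27.0%). The window from 17 to 18 Mb was the least covered, with 31 regions, 5.87% in replicate 1 and 6.84% in replicate 2. Next came the window from 14 to 15 Mb, with 34 regions, 7.57% in the replicate set, 6.07% in replicate 1 and 5.51% in replicate 2, its lowest. It was followed by the window from 15 to 16 Mb, with 35 regions and 10.6%. The proximal part thus held both poor windows and, from 19 to 20 Mb, one of the richest.

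Both replicates ranked the windows alike, with a Spearman rho of 0.97 over the 23 windows, given as a description since neighbouring windows are not independent. They were furthest apart in the first window at the telomere, with 18.3% in replicate 1 and 27.0% in replicate 2. The first region of the arm lay at 11148 to 14795, with a score of 0.59 and overlap in each replicate. The last lay at 22970706 to 22972312, with a score of 0.45 and overlap in replicate 2 alone. Beyond it 39232 bp to the end of the 2L reference sequence held no region, and the profile covers that sequence only. The last full window, from 22 to 23 Mb, held 49 regions and no region of 8 kb or more.

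**Figure D2:**
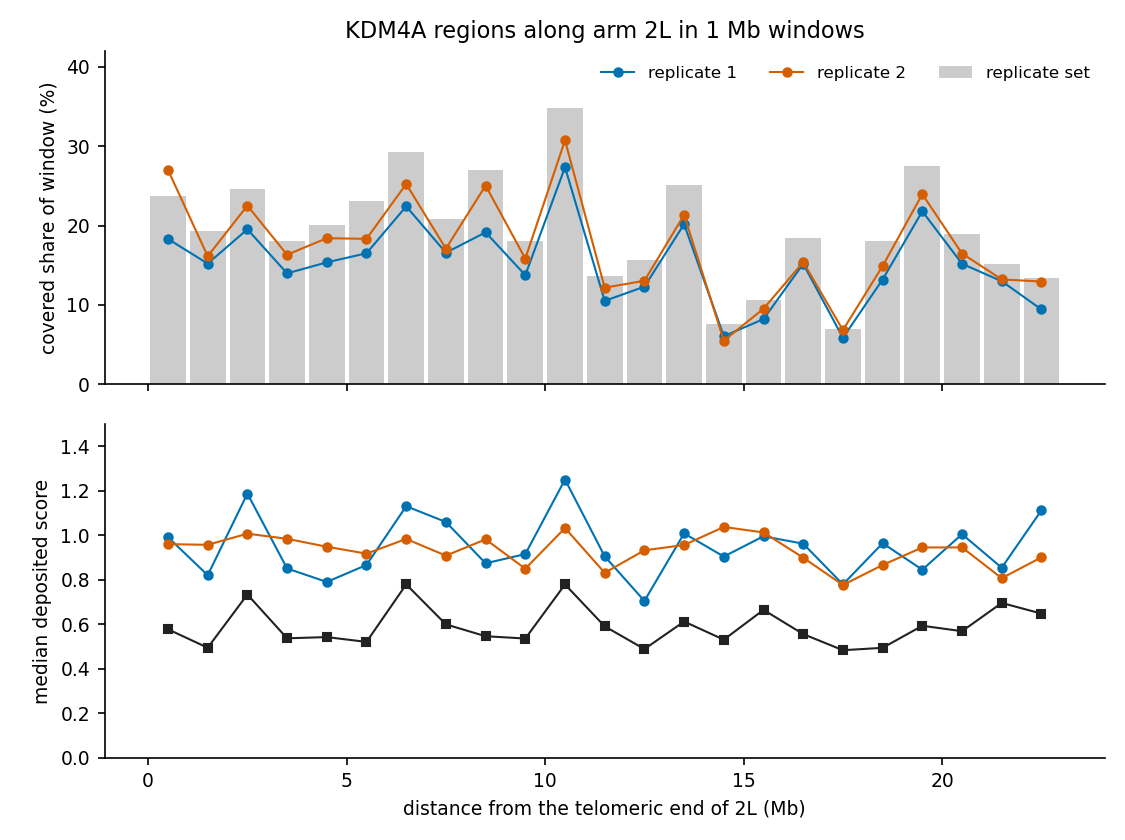
Covered share of each 1 Mb window of 2L in percent (top) and median score of its regions (bottom) against distance from the telomeric end in Mb. Grey bars and black squares are the replicate set, blue points replicate 1 and orange points replicate 2. Coverage peaks at 34.8% in the window from 10 to 11 Mb and is lowest, at 6.95%, in the window from 17 to 18 Mb, while the median score of the replicate set stays between 0.48 and 0.78.

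Regions crowded together in a few places. A dense stretch is taken here as a run of 5 or more regions with no gap over 2000 bp. There were 29 such runs on 2L, holding 174 regions, or 12.5% of the arm's regions against 11.7% on the other large arms and 9.39 to 13.4% on single ones. The list of replicate 1 held 13 runs on 2L with 7.34% of its regions, against 5.65% on the other arms, 7.50% on 2R and 8.12% on 3L. The list of replicate 2 held 22 runs with 9.81% of its regions, against 7.48% on the other arms and 11.8% on 2R. The 2L share thus lay above the other arms together in each list and within the range of the single arms. The runs of the replicate set spanned 13.2 to 58.2 kb, and a median of 86.8% of their length was covered. The distal part held 11 of them, the middle part 13 and the proximal part 5.

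The run with most regions lay at 10259901 to 10317648. Its 11 regions covered 88.5% of its 57.7 kb, with 65.8% covered in replicate 1 and 83.6% in replicate 2. Directly before it, a run of 9 regions at 10198881 to 10257041 was 89.95% covered (59.9% in replicate 1 and 81.8% in replicate 2). A run of 8 regions lay at 13170934 to 13206553, with 6 regions held by both replicates. Another run of 8 lay at 5976726 to 6004930, of which only 3 regions were held by both replicates. The fifth, of 7 regions, lay at 6033710 to 6074304 and was 90.5% covered.

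The first and second of these runs belong to one crowded stretch, which was singled out after its values were seen. From 10198881 to 10440516, over 241.6 kb, 5 runs and 37 regions covered 83.2% of the sequence, and no gap exceeded 6773 bp. Replicate 1 covered 65.6% of it with 39 regions and replicate 2 covered 77.9% with 38. Of the 37 regions, 28 were held by both replicates, 7 by replicate 2 alone, 2 by replicate 1 alone and 0 by neither. Their median score of 0.98 compares with 0.59 for the whole arm, and 6 of them were at least 8 kb wide.

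**Figure D3:**
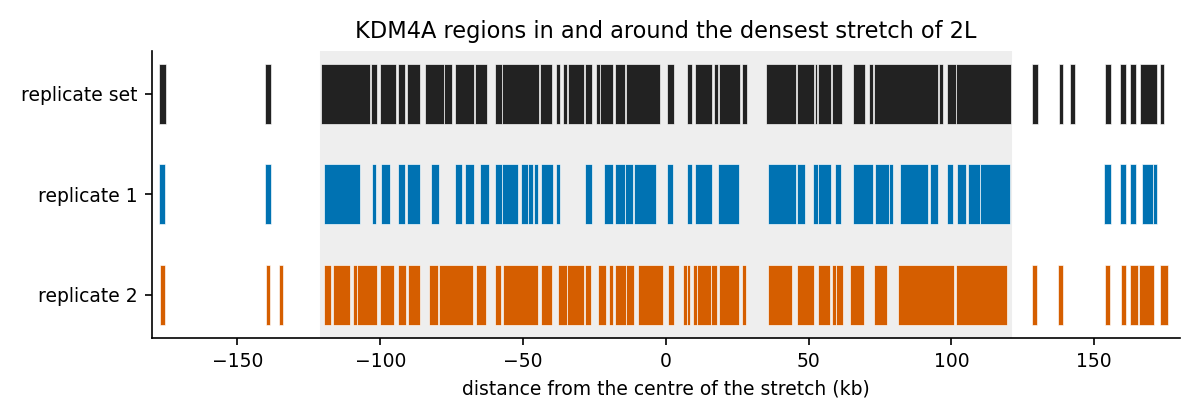
Regions of the replicate set (black), replicate 1 (blue) and replicate 2 (orange) against distance in kb from the centre of the densest stretch of 2L, which is shaded and spans 241.6 kb. Bars are regions to scale. Within the shaded stretch 83.2% is covered in the replicate set, 65.6% in replicate 1 and 77.9% in replicate 2.

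In 100 kb windows the same stretch gave the most covered window of the large arms. From 10.2 to 10.3 Mb 85.6% was covered, against a highest value of 71.7% on the other arms, on 3R. In replicate 1 the highest window of 2L was the next one, from 10.3 to 10.4 Mb, with 66.8% against at most 62.5% on another arm. In replicate 2 it was the window from 10.2 to 10.3 Mb, with 80.1% against at most 69.6%. Other highly covered windows of 2L started at 1.1 Mb (68.4%), 19.0 Mb (63.5%) and 6.0 Mb (62.4%).

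How common such windows were depended on the list. Of 230 windows on 2L, 17 (7.39%) were among the top 10% of all windows of the large arms, which lay at or above 43.3% coverage in the replicate set, against 10.6% of the windows of the other arms. They formed 12 separate blocks, and 8 of the windows lay in the distal part, 7 in the middle part and 2 in the proximal part. On 2R the share was 15.6% and on 3L it was 7.35%. With the top 10% taken within the list of replicate 1, at or above 34.7% coverage, 2L held 18 such windows (7.83% against 10.5%). Within the list of replicate 2, at or above 37.5%, it held 25 (10.9% against 9.80%), so the direction turned.

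Long gaps took up more of 2L than of any other large arm in the replicate set. A desert is taken here as a gap of 50 kb or more between neighbouring regions. There were 94 among 1386 gaps, or 6.78% against 4.81% on the other arms. Together they spanned 7.87 Mb, which was 34.2% of the arm, against 31.1% on 3R, 29.5% on 3L, 28.6% on X and 22.5% on 2R. In replicate 1 deserts made up 44.5% of 2L and 33.0 to 41.3% of the other arms. In replicate 2 they made up 39.0% of 2L, above 2R, 3L and 3R (22.9 to 34.2%) but below X (48.9%). Between regions held by both replicates, they made up 52.7% of 2L. That was below X (54.8%) and above 2R (40.6%), 3R (49.1%) and 3L (51.3%).

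The longest desert lay at 11283219 to 11496288, over 213.1 kb, less than 1 Mb beyond the densest stretch. It held 0 regions of replicate 1 and 3 of replicate 2. The next lay at 14798514 to 14971748 (173.2 kb), 17785835 to 17953333 (167.5 kb), 21398524 to 21560232 (161.7 kb) and 4031929 to 4185083 (153.2 kb). Replicate 2 held 2, 1, 0 and 0 whole regions inside these, and replicate 1 held 0 in each. The deserts at 21398524 and 4031929 were thus free of whole regions in each replicate. Parts of replicate 1 regions covered 677 bp of the desert at 21398524 and 8 bp of that at 4031929. Whether reads could be placed uniquely inside the deserts was not examined.

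Deserts occurred all along the arm, with 30 in the distal part (2.28 Mb), 31 in the middle part (2.51 Mb) and 33 in the proximal part (3.08 Mb). Over all 94, replicate 1 placed 7 whole regions and covered 0.205% of the sequence, and replicate 2 placed 63 and covered 1.33%. In 51 of them neither replicate held a whole region. The regions that border deserts had a median score of 0.56 against 0.59 for the arm, and a median width of 1919 bp against 2206 bp. A high-scored region can stand at the edge of one: the region before the desert at 12548131 to 12689967 scored 2.19.

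Of the 230 windows of 100 kb, 8 held no covered base in the replicate set, and 44 (19.1%) were under 5% covered against 16.5% on the other arms. The empty windows started at 9.0, 11.3, 14.8, 15.8, 17.0, 17.8, 19.6 and 21.4 Mb. Those at 19.6 and 21.4 Mb were also empty in each replicate. The window at 19.6 Mb borders directly on a window that was 61.1% covered.

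Broad regions, taken here as those of at least 8 kb, were a sizeable part of the 2L coverage. There were 94, or 6.78% of the regions against 5.21% on the other large arms, with 6.79% on 3R and 2.67% on X. They spanned 1.14 Mb, or 25.3% of the covered sequence, against 24.99% on 3R, 21.7% on 2R, 18.6% on 3L and 10.5% on X. The distal part held 45 of them, the middle part 32 and the proximal part 17. On 3L the same parts held 35, 25 and 23, and on 3R they held 36, 34 and 53. The replicates' own lists held fewer broad regions on 2L, with 36 (3.26% against 2.41% on the other arms) in replicate 1 and 59 (4.67% against 3.94%) in replicate 2. In replicate 1 3R had a higher share (3.46%), and in replicate 2 both 2R (4.82%) and 3R (4.78%) did.

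The widest region, of 28947 bp at 19029470 to 19058416, scored 1.39 and was overlapped by 4 separate regions in each replicate. The region at 11984799 to 12013547 was 28749 bp wide, scored 2.91 and was 95.5% covered by 1 region of replicate 1 and 98.1% by 2 regions of replicate 2. The region at 4440066 to 4468351, of 28286 bp, scored 1.56 and was met by 1 region of replicate 1 and 3 of replicate 2. The next in width were 23360 bp at 1163439 and 22530 bp at 10392506.

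The rest of the 10 widest ranged from 16944 bp at 2367061 to 19925 bp at 21153074, with scores from 1.15 to 1.69. Among the 10 widest, 3 lay in the crowded stretch, at 10198881, 10392506 and 10421448. All 94 broad regions were held by each replicate, as were all 355 on the other large arms, though 1 bp of overlap sufficed. The replicates divided them: 77 were met by more than 1 region in at least one replicate, and 17 were met by a single region in each. Replicate 1 covered a median of 87.0% of a broad region and replicate 2 a median of 92.1%. The lowest cover of a broad region was 20.4% in replicate 1 and 56.1% in replicate 2. Just inside the limit of width lay a region of 8077 bp at 1101435 (score 0.85), and just outside it one of 7917 bp at 6556452 (score 1.39).

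The highest-scored regions of 2L were spread along the arm. Broad regions scored higher than narrower ones on 2L, with a median of 1.31 against 0.56. On the other large arms these medians were 1.39 and 0.60. The region at 2190990 to 2204485, of 13496 bp, scored 3.27 in the replicate set, 3.56 in replicate 1 and 2.88 in replicate 2. The region at 4809093 to 4813578, of 4486 bp, scored 3.14, with 3.63 in replicate 1, the highest 2L score of that list, and 2.67 in replicate 2. The 28749 bp region named above came next, with 3.23 in replicate 1 and 2.73 in replicate 2. The other regions of the top 10 were 2308 to 4336 bp wide.

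The highest score of the proximal part, 2.82, belonged to a region of 2906 bp at 16490222 to 16493127, with 2.98 in replicate 1 and 2.77 in replicate 2. The other six lay at 9698199 (score 2.68), 15489666 (score 2.58), 18687298 (score 2.58), 6096402 (score 2.58), 20820794 (score 2.55) and 10259901 (score 2.52). The last of these opens the run with most regions. All of the top 10 were met by exactly 1 region of replicate 1. Their replicate 1 scores were at least 2.78, against an upper quartile of 1.51 for the 2L regions of that list. Their replicate 2 scores were at least 1.91, against an upper quartile of 1.29. The 10 were picked by their replicate-set score, so these replicate scores are not independent support.

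**Figure D4:**
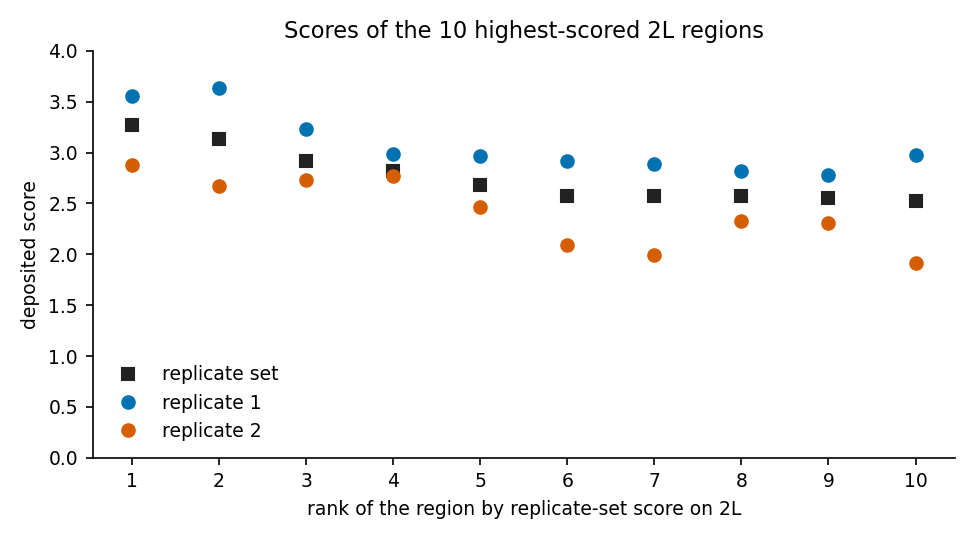
Deposited score (y axis) of the 10 highest-scored 2L regions, ordered by rank in the replicate set (x axis). Black squares are the replicate set, blue points the highest overlapping region of replicate 1 and orange points that of replicate 2. Replicate 1 lies at 2.78 or above and replicate 2 at 1.91 or above for all 10, and levels of different lists are not on a common base.

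Of the 1387 regions, 789 (56.9%, 95% Wilson interval 54.3 to 59.5%) were overlapped by at least 1 bp in each replicate, against 53.0% on the other large arms. Single arms ranged from 47.2% on X to 56.4% on 3R. Replicate 1 alone supported 186 regions, replicate 2 alone supported 212, and 200 (14.4% against 18.0%) met a region of neither. The interval covers the counting of regions only, which are not independent along an arm. How the replicate set was made from the replicates is not stated, so overlap with them is not independent support. The 789 regions held 79.4% of the covered sequence of the arm.

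Support was seldom marginal. For 736 of the 789, 50% or more of the length was covered in each replicate, and for 4 the cover was under 10% in one of them. The less covering replicate reached a median of 83.5%. A single region of replicate 1 matched 689 of the 789, and a single region of replicate 2 matched 678. The scores of both replicates over these 789 regions had a Spearman rho of 0.73, against 0.66 to 0.78 on the other arms, as a description over regions of the same libraries.

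The share of regions held by both replicates rose with score and with width. With the 2L regions ranked by score into 4 equal groups, it was 17.3%, 28.5%, 82.7% and 99.1%, from lowest to highest. The other large arms, ranked together by score in the same way, gave 15.9%, 26.2%, 71.5% and 98.6%. They include X, which had a higher median score (0.73) than 2R, 3L and 3R (0.55 to 0.58). X also had the lowest share held by both (47.2%). The share of 2L regions met by neither replicate did not fall steadily over the score groups, at 17.9%, 28.8%, 10.1% and 0.86%. Median width rose over the same 2L groups, at 1644, 1676, 2783 and 4486 bp. Ranked by width instead, the 2L shares held by both were 1.73%, 40.3%, 86.1% and 99.4%. Score and width were not separated here. Along the arm the share held by both varied less, from 44.2% in the window from 12 to 13 Mb to 69.6% in the window from 10 to 11 Mb. The distal, middle and proximal parts had 58.5%, 56.1% and 55.9%.

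The 3 highest-scored regions without overlap in either replicate were short. The first, 1164 bp at 22232702 to 22233865, scored 2.39 and ranked 15 on the arm. The next, 1013 bp at 2298355 to 2299367, scored 2.00 and stood alone between gaps of 60313 and 52427 bp. The last, 1049 bp at 20175800 to 20176848, scored 1.72. All 3 were narrower than the narrowest 2L region in the list of replicate 1 (1303 bp) and of replicate 2 (1301 bp). With overlap in 1 replicate the highest scores were 0.94 at 21560233, 0.79 at 11802183 and 0.77 at 18140635, all supported by replicate 1. The first of these closes the desert at 21398524 and scored 2.09 in replicate 1.

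The replicates also held 2L regions that the replicate set did not. These were 24 of 1103 (2.18%) in replicate 1 and 225 of 1264 (17.8%) in replicate 2. On 2R, 3L and 3R the share for replicate 2 was 17.5 to 18.4%, and on X it was 7.10%. Those of replicate 2 on 2L had a median width of 1501 bp and a median score of 0.85, and 4 of them met a region of replicate 1. The highest scored 2.74, at 22547312 to 22548796, and was picked out after its values were seen.

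Score and support of the 2L regions differed on either side of a width of 2000 bp. Below that width lay 574 regions with a median score of 0.42, of which 52 (9.06%) were overlapped by each replicate and 198 (34.5%) by neither. At or above it lay 813 regions with a median score of 0.99, of which 737 (90.7%) were overlapped by each replicate and 2 by neither. The step was sharp. Of 255 regions from 1500 bp to under 2000 bp, 19.2% were held by both replicates. Of 226 regions from 2000 bp to under 2500 bp, 81.0% were. On 2L the groups on either side of the step had median scores of 0.38 and 0.68. The other large arms had a like step, with 18.9% and 75.8% held by both. There 8.40% of the regions below 2000 bp were held by both and 40.2% by neither. At or above 2000 bp 87.4% were held by both, so the step was not confined to 2L.

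A score of 1 or more occurred in 5 of the 574 narrower regions and in 401 of the 813 wider ones. Below 2000 bp score fell with width, with a Spearman rho of -0.45, and from 2000 bp on it rose, with a rho of 0.46. The other arms gave -0.41 to -0.47 below the boundary and 0.40 to 0.50 above it, so this shape was not confined to 2L. In the lists of replicates 1 and 2 the rho of the narrower 2L regions was -0.11 and -0.17. The boundary was chosen after the plot of width and score had been seen, and the settings of the caller were not given in the sources used here. The narrowest 2L region was 1001 bp wide in the replicate set, 1303 bp in replicate 1 and 1301 bp in replicate 2.

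**Figure D5:**
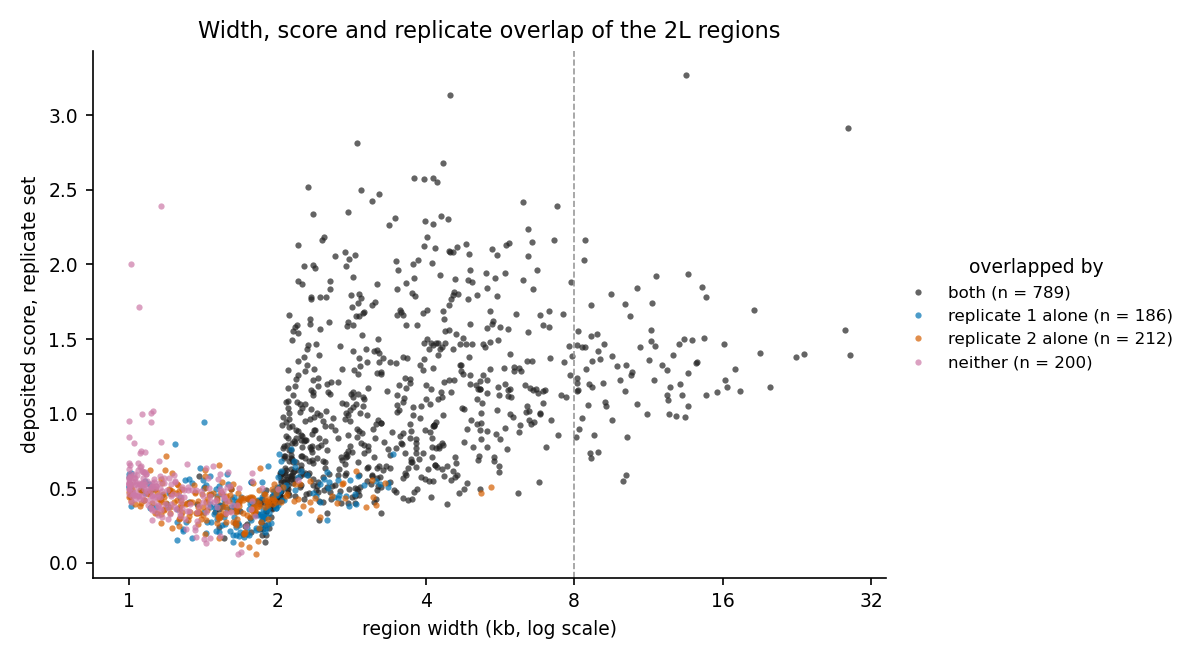
Deposited score in the replicate set (y axis) against region width in kb on a log scale (x axis) for the 1387 regions of 2L, coloured by overlap with the replicates. The dashed line marks 8 kb. Regions from 2 kb on are mostly overlapped by each replicate (737 of 813), and the narrower ones rarely are (52 of 574).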

How the data were processed

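KDM4A ChIP-seq lists of head nuclei were used as deposited, 1 per ChIP sample and 1 for the replicate set. Per the labels, each input served the ChIP of the same number. The submitters' processing notes name Bowtie 0.12.7. Coordinates are on FlyBase release 5, per the file headers. The authors gave each region 1 score. The caller, its threshold and any pooling of replicates were not given in the sources used here, and a gene table of release 6 was not used for positions.

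Coverage, gaps, runs, windows (a last window under 50% of its size was dropped) and overlaps were computed with pandas 2.3.3, scipy 1.17.1 and numpy 2.4.6 under Python 3.11.15, and drawn with matplotlib 3.10.9. Functions were tested on a simulated arm with planted regions. A region's score in a replicate is the highest among its overlapping regions there. No test was run. Alternatives were other lists, score, gap and width limits, overlaps, windows and the joining of close neighbours.

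The members, limits and rules for naming regions were chosen with earlier results of these data known. Named were the 10 highest-scored and 10 widest regions, the 5 largest runs, the 5 longest gaps, the 5 densest and emptiest 100 kb windows, the first and last region, the highest-scored of each part of the arm, and the 3 highest-scored without support and with support of 1 replicate.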

Additional observations from a re-analysis of the deposited data

How the results depend on the processing

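No alternative turned the direction of the telomere-to-centromere difference. The distal minus the proximal share, 6.12 percentage points, ran from 4.41 to 6.10 when either replicate was left out. Leaving out a replicate means using the other's own list. It gave 15.2 to 17.3% of 2L covered, a median gap of 4238 to 5187.5 bp, and a rho of score and width of 0.66 to 0.75 (added after seeing the data). Covered shares then ran from 17.1 to 20.2% (distal), 15.7 to 17.6% (middle) and 12.7 to 14.1% (proximal). Dense runs numbered 13 to 22 and broad regions 36 to 59. In both of the last counts the lower value is that of replicate 1's list, against 29 runs and 94 broad regions in the replicate set.

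Keeping the higher-scored 50% of the whole replicate-set list, at scores of at least 0.61, left 653 regions on 2L. These covered 13.7% of the arm with a median gap of 10112.5 bp, and 93.1% of them were held by both replicates. In the distal, middle and proximal parts they covered 16.1%, 14.1% and 11.1%. Regions held by both replicates covered 18.2%, 15.9% and 12.4% of the same parts and left 108 deserts. With at least 50% of the region covered by each replicate, 53.1% were held by both. Joining neighbours under 1000 bp apart gave 1042 regions, 20.2% of the arm covered and 131 broad regions. Other limits changed counts by construction: 231 deserts from 25 kb and 25 from 100 kb, 6 runs with gaps up to 1000 bp and 65 up to 4000 bp, 42 dense windows of 50 kb and 9 of 200 kb, 210 broad regions from 5000 bp and 38 from 12000 bp.

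Of 49 alternatives over all results, 32 moved the value past the limit set for it and 17 did not. The limit was a fold change for counts, the Wilson interval for the share held by both and the replicates' SD for the rest. No paired analysis was possible because neither input carried region values. Depth is unknown, so no limit of detection can be given.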

Other observations

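Scores recurred exactly in many 2L regions. In the replicate set 318 of 1387 regions (22.9%) shared their score, to 10 decimals, with another region of the list. The share was 17.7% in replicate 1 and 41.5% in replicate 2. Written as a ratio of whole numbers in lowest terms relative to the commonest score, the 3 highest-scored regions without overlap in either replicate corresponded to 17 to 4 at 22232702, 13 to 4 at 2298355 and 8 to 3 at 20175800. A ratio in lowest terms does not give the counts behind it, since any multiple gives the same score.

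The larger number of that ratio was up to 100 in 77 of the 200 regions that met neither replicate (38.5%). It was up to 100 in 34 of the 186 met by replicate 1 alone (18.3%), in 46 of the 212 met by replicate 2 alone (21.7%) and in 51 of the 789 met by each (6.46%). These values describe the lists and were not tested.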
